A study of Mus musculus with 10 samples.

Results

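Inflammatory monocyte markers were followed in macrophages from drug-resistant melanoma, across mice lacking the chemokine receptor Ccr2 and their controls. The 8 genes were Ccr2 itself, the membrane and intracellular markers Plac8 and Mcemp1, the secreted proteins Chil3 and Hp, and the matrix proteins Vcan, Fn1 and Thbs1. They were chosen by symbol for their behaviour in the comparison of Ccr2 knockout with control, including some that changed with Ccr2 and some that did not. Their values in that comparison are therefore a description and are given without a test. All 8 of the 55359 gene identifiers were found, and all 8 were among the 14374 genes that passed the filter on low counts.

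Classical, or inflammatory, monocytes are made in the bone marrow, and their release into blood and recruitment to inflamed tissue depend on Ccr2, which responds to chemokines such as Ccl2 and Ccl7. In tissue they switch off monocyte genes as they turn into macrophages and switch on genes of phagocytosis and clearance. Some monocyte products are not made by monocytes alone, since neutrophils also express Chil3, Hp and Mcemp1, fibroblasts make Vcan, Fn1 and Thbs1, and platelets store Thbs1.

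RNA-seq libraries were made from cells carrying F4/80, a macrophage surface protein, sorted from tumour tissue of male mice with Braf-mutant melanoma in the resistant or rebound state under daily Braf and Mek inhibitors. The 5 Ccr2 knockout libraries came from mice with the RFP allele on both chromosomes (Ccr2RFP/RFP). The 5 control libraries came from heterozygous mice (Ccr2RFP/+), so these too carried an altered allele and kept a single intact copy. The titles call the control libraries WT, but the stated genotype is used here. Nothing in the labels says which part of Ccr2 the RFP allele replaces, how old the animals were, or whether each library came from a separate animal. The p-values therefore measure only the spread between these libraries, which may in part be technical.

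The libraries held between 34639808 and 43360206 counts in genes. Macrophage markers were abundant in every library: 10 listed genes, among them Lyz2, C1qb and C1qa, together reached 29749 to 38535 CPM (counts scaled to library size) in Ccr2 knockout and 28098 to 33414 CPM in control libraries. Some libraries stood unusually close to each other. The median chi-square per gene was 2.999 for control libraries 1 and 2 and 2.90 for control libraries 3 and 4, against a value of 0.455 from sampling noise and up to 33.3 between other libraries. Knockout library 2 was closer to control library 3 (6.97) than to any knockout library (8.74 or more), and knockout libraries 4 and 5 stood at 8.36. Counts of genes past the threshold are also given with these pairs summed to 1 library each. The libraries are bulk samples, so fewer cells of a type and less RNA per cell cannot be told apart.

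For 5 of the 8 genes RefSeq promoter windows were at hand, running from 250 bases before to 50 bases after an annotated start. The windows of Ccr2 (chr9:124101933-124102232 on the plus strand), Plac8 (chr5:100572156-100572455 on the minus strand, the outer of 2 starts) and Chil3 (chr3:106167515-106167814 on the minus strand) on GRCm38.p6 are shown because these 3 genes kept the smallest shares of their control level. Each runs 5′ to 3′ along its gene, and capitals mark matches to the motifs described after the sequences.
Ccr2: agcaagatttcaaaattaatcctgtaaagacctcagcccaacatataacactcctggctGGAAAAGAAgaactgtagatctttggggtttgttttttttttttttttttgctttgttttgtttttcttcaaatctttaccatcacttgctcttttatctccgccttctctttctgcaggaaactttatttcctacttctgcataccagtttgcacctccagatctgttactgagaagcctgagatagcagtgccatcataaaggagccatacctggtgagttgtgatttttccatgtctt
Plac8: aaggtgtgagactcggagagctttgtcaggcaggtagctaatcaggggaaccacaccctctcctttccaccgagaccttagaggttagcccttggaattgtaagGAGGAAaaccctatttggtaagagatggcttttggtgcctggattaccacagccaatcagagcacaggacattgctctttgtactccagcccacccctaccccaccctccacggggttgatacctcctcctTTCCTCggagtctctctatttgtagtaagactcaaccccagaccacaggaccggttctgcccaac
Chil3: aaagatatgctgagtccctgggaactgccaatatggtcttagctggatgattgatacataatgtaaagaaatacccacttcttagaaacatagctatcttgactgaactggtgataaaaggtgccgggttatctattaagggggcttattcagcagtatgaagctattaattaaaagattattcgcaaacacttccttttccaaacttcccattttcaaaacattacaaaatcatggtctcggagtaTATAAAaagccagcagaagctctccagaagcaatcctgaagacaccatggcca
The motifs searched on both strands were the PU.1 core GAGGAA, the C/EBP motif TTGCNNAA, the Ets-Irf composite GGAANNGAA and the TATA box TATAAA. PU.1 and C/EBP proteins are transcription factors of the myeloid lineage. The Ccr2 window held an Ets-Irf match beginning 191 bases upstream of the start, the Plac8 window held PU.1 matches beginning 146 and 15 bases upstream, and the Chil3 window held a TATA match beginning 3 bases upstream. The inner Plac8 window held a C/EBP match beginning 12 bases upstream. The windows of Mcemp1 and Vcan held none of these letters. No motif was shared by these windows of different genes, and among all 32851 promoter windows 28.3% held the PU.1 core, 10.8% the C/EBP motif, 8.24% the Ets-Irf composite and 13.6% the TATA box. The PU.1 core and the Ets-Irf composite share letters and can overlap.

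The 8 genes fell along a gradient, from almost complete loss of Chil3 and Ccr2 to full retention of Fn1. In knockout libraries the mean level was 1.87% of the control mean for Chil3, 3.96% for Ccr2, 6.37% for Plac8, 10.5% for Hp, 13.99% for Mcemp1, 21.1% for Thbs1, 37.9% for Vcan and 111% for Fn1. The share in single knockout libraries ran from 0.428% to 4.45% for Chil3 and from 15.2% to 101% for Vcan, so the genes differed in spread as well as in mean. In 4 of the 8, Ccr2, Plac8, Mcemp1 and Chil3, the adjusted p over all genes was under the threshold of 0.05. Of all genes tested 1.41% did so, 0.543% lower and 0.87% higher in Ccr2 knockout. In 5 of the 8, these 4 and Thbs1, every knockout library lay below every control library, which held for 2.02% of all genes. With the close control pairs summed, 4 of the 8 and 29 of all genes passed, against 203 of all genes with every library kept apart. With knockout libraries 4 and 5 summed as well, 1 of the 8 and 8 of all genes passed. Since the genes were selected on this comparison, nothing is read from those counts. The median log2 fold change, Ccr2 knockout over control, was -3.05 over the 8 genes and -0.00335 over all genes tested.

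**Figure D1:**
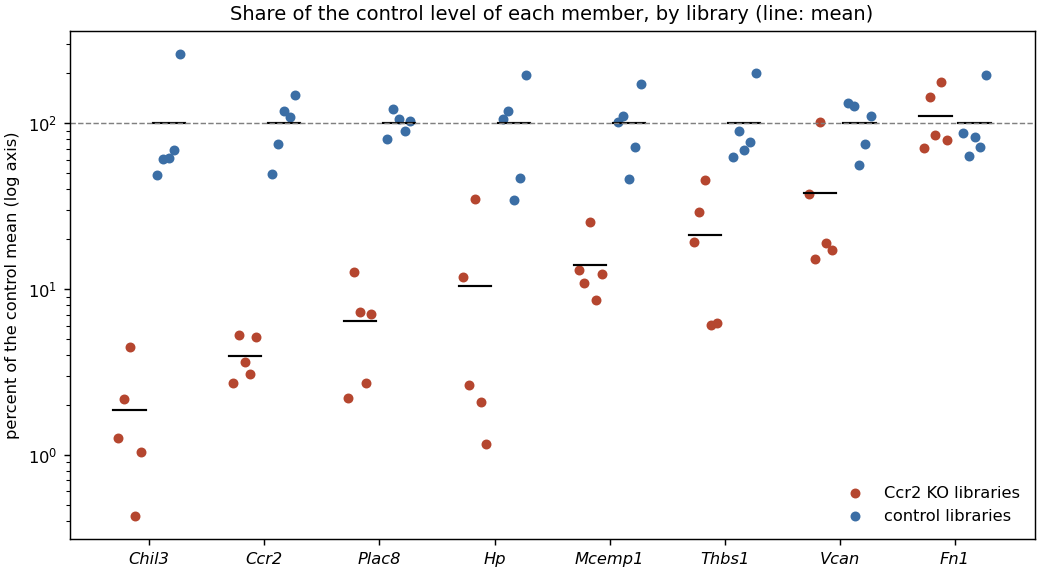
Level of each gene as a percent of its control mean on a log axis, with Ccr2 knockout libraries in red left of control libraries in blue, a point per library and a line at the mean. Knockout means run from 1.87% for Chil3 to 111% for Fn1, and the points for Hp, Thbs1 and Vcan spread more widely than those for Ccr2.

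Ccr2 (ENSMUSG00000049103), the altered gene, stood at 3.23, 6.28, 4.33, 3.64 and 6.13 CPM in Ccr2 knockout libraries 1 to 5, against 59.0, 89.6, 142, 129.97 and 177 CPM in control libraries 1 to 5. The lowest control library was 9.40 times the highest knockout library, so each library matched its genotype label. The log2 fold change was -4.66 with a standard error of 0.33. Ccr2 reads measure the allele itself in the knockout, so their loss there does not report how many cells of the Ccr2 lineage remained. Among controls Ccr2 varied 2.99-fold, lowest in library 1 and highest in library 5.

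Plac8, a small cysteine-rich protein of myeloid and other leukocytes, was the most even gene of the set among controls. It had 2.06, 11.96, 6.82, 2.57 and 6.68 CPM in Ccr2 knockout libraries, against 75.7, 114, 100.3, 84.3 and 97.9 CPM in control libraries. The coefficient of variation was 66.4% in knockout and 15.9% in control libraries, and the groups were apart by 6.33 times. Its log2 fold change was -3.97 (standard error 0.44). Knockout library 2 was the highest of its group for Plac8 and for Ccr2, and knockout library 1 the lowest for both.

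Mcemp1, a membrane protein of mast cells, monocytes and neutrophils, was far less abundant. It had 1.69, 1.42, 3.29, 1.12 and 1.62 CPM in Ccr2 knockout libraries, against 13.2, 14.4, 6.03, 9.39 and 22.4 CPM in control libraries, resting on 46 to 130 counts in knockout and 211 to 922 counts in control libraries. The lowest control library was 1.83 times the highest knockout library. Its log2 fold change was -2.84 (standard error 0.39). Knockout library 3 and control library 5 were the highest of their groups.

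**Figure D2:**
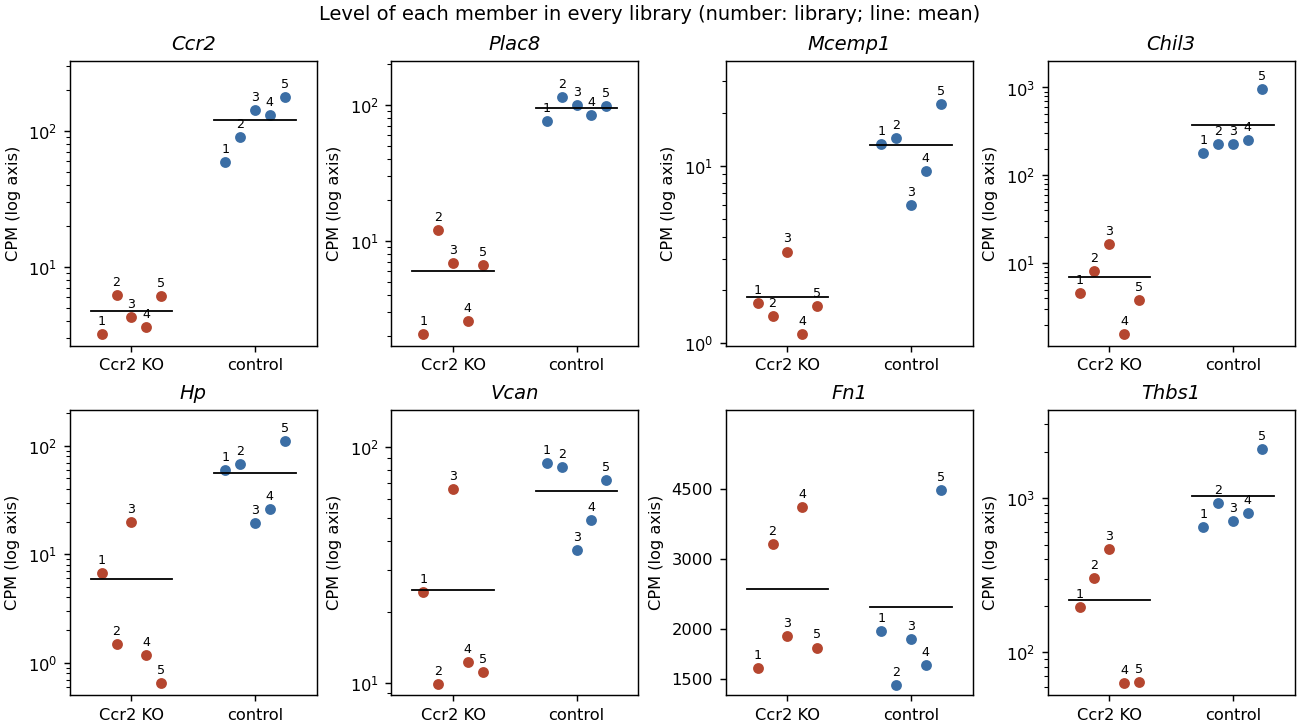
Level of each of the 8 genes in CPM on a log axis, with Ccr2 knockout libraries in red left of control libraries in blue, a point per library numbered 1 to 5 and a line at the mean. Ccr2, Plac8, Mcemp1, Chil3 and Thbs1 show no overlap between groups, and control library 5 stands highest for 6 of the 8 genes.

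Chil3, a secreted chitinase-like lectin also called Ym1, differed most between the groups and varied widely within each. It had 4.66, 8.09, 16.5, 1.59 and 3.84 CPM in Ccr2 knockout libraries, against 181, 227, 229, 255 and 966 CPM in control libraries. Control library 5 stood far above the other controls, and the lowest control library was still 10.9 times the highest knockout library. The log2 fold change was -5.74 (standard error 0.76), and -5.00 without control library 5. Chil3 has a close relative in Chil4, its neighbour on chromosome 3, and reads that map to more than 1 place were not counted here. Reads assigned to Chil4 numbered 0 in every Ccr2 knockout library, and 1, 0, 0, 1 and 4 in control libraries 1 to 5.

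Hp, which encodes the haemoglobin-binding plasma protein haptoglobin, split the knockout libraries. It had 6.65, 1.49, 19.7, 1.17 and 0.653 CPM in Ccr2 knockout libraries, against 59.7, 67.4, 19.6, 26.3 and 110.0 CPM in control libraries. Knockout library 3 reached the level of control library 3, so the groups overlapped, while knockout libraries 2, 4 and 5 were at 2.64%, 2.07% and 1.15% of the control mean. Its highest knockout library was 30.2 times its lowest, the widest range within a group among the 8 genes. For Hp the log2 fold change was -3.25 with a standard error of 0.90, and -4.49 without knockout library 3.

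Vcan, the large matrix proteoglycan versican, overlapped between the groups. It had 24.2, 9.87, 65.9, 12.3 and 11.1 CPM in Ccr2 knockout libraries, against 85.5, 82.3, 36.5, 48.9 and 72.2 CPM in control libraries. Knockout library 3 lay within the control range, and the other 4 knockout libraries lay below all controls. On the log2 scale the fold change was -1.40 (standard error 0.52), and -2.18 without knockout library 3. Reads in no annotated feature made up 5.68%, 3.81%, 5.20%, 3.635% and 3.89% in Ccr2 knockout libraries 1 to 5. In control libraries 1 to 5 they made up 5.43%, 4.81%, 4.05%, 4.24% and 4.61%. Within each genotype the libraries with the larger shares were those with more Hp and Vcan, and narrowly Mcemp1. The other genes did not follow that division, and its cause was not tested.

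Thbs1, the matrix glycoprotein thrombospondin-1, which activates latent Tgfb1, had 198, 301, 466, 63.1 and 64.6 CPM in Ccr2 knockout libraries, against 647, 932, 710.2, 801 and 2079 CPM in control libraries. Knockout libraries 4 and 5 stood at about 6.10% and 6.25% of the control mean and knockout library 3 at 45.1%. The lowest control library was 1.39 times the highest knockout library. The log2 fold change was -2.24 (standard error 0.58), and -1.81 without control library 5.

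Fn1, the adhesive matrix protein fibronectin, was kept. It had 1606, 3272, 1924, 4041 and 1802 CPM in Ccr2 knockout libraries, against 1977, 1450.4, 1891, 1629 and 4458 CPM in control libraries. The ranges overlapped almost fully, and the high libraries were knockout 2 and 4 and control 5. The log2 fold change was 0.15 with a standard error of 0.35. It was 0.55 without control library 5, -0.07 without knockout library 4 and -0.05 with the close control pairs summed, so its sign depends on which libraries enter.

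Set per kilobase of annotated exon, the order of the genes changed with genotype. In Ccr2 knockout libraries Fn1 led with 216 ± 91.6 RPKM, followed by Thbs1 with 35.99 ± 28.1, Chil3 with 4.25 ± 3.59, Plac8 with 3.78 ± 2.51, Hp with 3.69 ± 5.02, Vcan with 1.71 ± 1.64, Mcemp1 with 1.22 ± 0.567 and Ccr2 with 0.699 ± 0.209 RPKM (SD, n = 5). The libraries of neighbours in this order overlapped for all pairs from Chil3 down, so only Fn1 and Thbs1 stood clear. In control libraries Chil3 led with 228 ± 204 RPKM, followed by Fn1 with 195 ± 106, Thbs1 with 170.2 ± 97.8, Plac8 with 59.4 ± 9.41, Hp with 35.2 ± 22.6, Ccr2 with 17.7 ± 6.79, Mcemp1 with 8.76 ± 4.12 and Vcan with 4.5004 ± 1.48 RPKM (SD, n = 5). The libraries of Chil3, Fn1 and Thbs1 overlapped in turn, as did those from Plac8 down, with a gap between Thbs1 and Plac8. Control library 5 raised the control means, at 966 CPM for Chil3 (next 255) and 4458 CPM for Fn1 (next 1977). The lead of Chil3 over Fn1 in control libraries is therefore not firm. Lengths are unions of exons in another annotation release than the one counted, so these levels are approximate.

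The genes did not rank the libraries alike. Among knockout libraries, library 3 was the highest for Chil3, Hp, Mcemp1, Vcan and Thbs1, library 2 for Ccr2 and Plac8, and library 4 for Fn1. Among controls, library 5 was the highest for 6 genes, library 2 for Plac8 and library 1 for Vcan. The root-mean-square distance between profiles, each centred on its own mean log2 CPM over 10 libraries, was smallest for Ccr2 and Plac8 (0.59) and next for Mcemp1 with Thbs1 (0.71) and with Vcan (0.71). It was largest for Chil3 and Fn1 (3.18). These distances hold the difference between genotypes that chose the genes and are a description.

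By the same distance, the tested genes most like Ccr2 were Arhgef37 (0.65), the monocyte antigen gene Ly6c2 (0.66) and the orphan receptor gene Gpr141 (0.80). The same 3 genes were nearest to Plac8, with Ly6c2 closest at 0.33, Gpr141 at 0.69 and Arhgef37 at 0.79. Nearest to Mcemp1 were the aspartic protease gene Napsa (0.40), Gm9733 (0.42) and the small GTPase gene Rhou (0.43). Chil3 had no close match, with I830127L07Rik at 0.85, the coagulation factor gene F10 at 1.05 and Arhgef37 at 1.19. Nearest to Hp were Wfdc21 (0.56), the siderophore-binding protein gene Lcn2 (0.72) and the neutrophil glycoprotein gene Cd177 (0.77). Vcan was nearest to Gpx8 (0.34), the cytokine gene Clcf1 (0.36) and Msrb3 (0.38), and Thbs1 to the cytokine gene Osm (0.45), the transcription factor gene Nfil3 (0.47) and B4galnt4 (0.48). Fn1 was nearest to Mfsd4b3 (0.30), Lrp11 (0.30) and Gm5526 (0.31), which like Fn1 differed little between genotypes. Mfsd4b3 had means of only 0.493 CPM in knockout and 0.586 CPM in control libraries, and Gm5526 0.313 and 0.307 CPM. In knockout libraries B4galnt4, I830127L07Rik and Wfdc21 had means of 0.0774, 0.157 and 0.159 CPM. The likeness of these genes therefore rests on few counts.

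Some markers of neutrophils and fibroblasts moved with some of these genes. The 16 neutrophil markers summed to 247, 123, 186, 153 and 180 CPM in Ccr2 knockout libraries 1 to 5, against 491, 465, 189, 297 and 774 CPM in control libraries 1 to 5. None of these genes was at 0 throughout, but Ly6g was at 0 in knockout libraries 2 to 5 and control libraries 3 and 4. Elsewhere Ly6g was at most 0.321 CPM. Most of the neutrophil sum was Csf3r in several libraries, while S100a9 stood at 59.0, 1.16, 31.3, 0 and 0.131 CPM in Ccr2 knockout libraries, against 111, 66.0, 1.60, 13.3 and 135 CPM in control libraries. Hp was likewise higher in knockout libraries 1 and 3 than in knockout libraries 2, 4 and 5. Not all neutrophil markers shared that order. Retnlg stood at 6.83, 2.07, 10.2, 15.8 and 37.1 CPM in Ccr2 knockout libraries 1 to 5. Csf3r stood at 109, 109, 75.6, 129 and 130 CPM in the same libraries. Hp and Mcemp1 were both highest in control library 5 and lowest in control library 3. Knockout library 3 and control library 3 had nearly equal sums of different makeup, with Csf3r at 75.6 CPM in knockout library 3 and 144.6 CPM in control library 3, and S100a9 at 31.3 CPM in knockout library 3 and 1.60 CPM in control library 3. The neutrophil sum differed by -1.20004 on the log2 scale (exact two-sided permutation p = 0.0159, adjusted p = 0.0774 over 13 marker lists). As a mean of log2 CPM over the markers, which gives Csf3r no more weight than the others, the difference was -2.67 (exact permutation, adjusted p = 0.172). The adjusted p of the neutrophil sum ran from 0.0344 without control library 3 to 0.181 without knockout library 2. The part of neutrophil RNA in Hp, Mcemp1 and Chil3 was not tested. The smallest p this design allows is 0.00794.

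**Figure D3:**
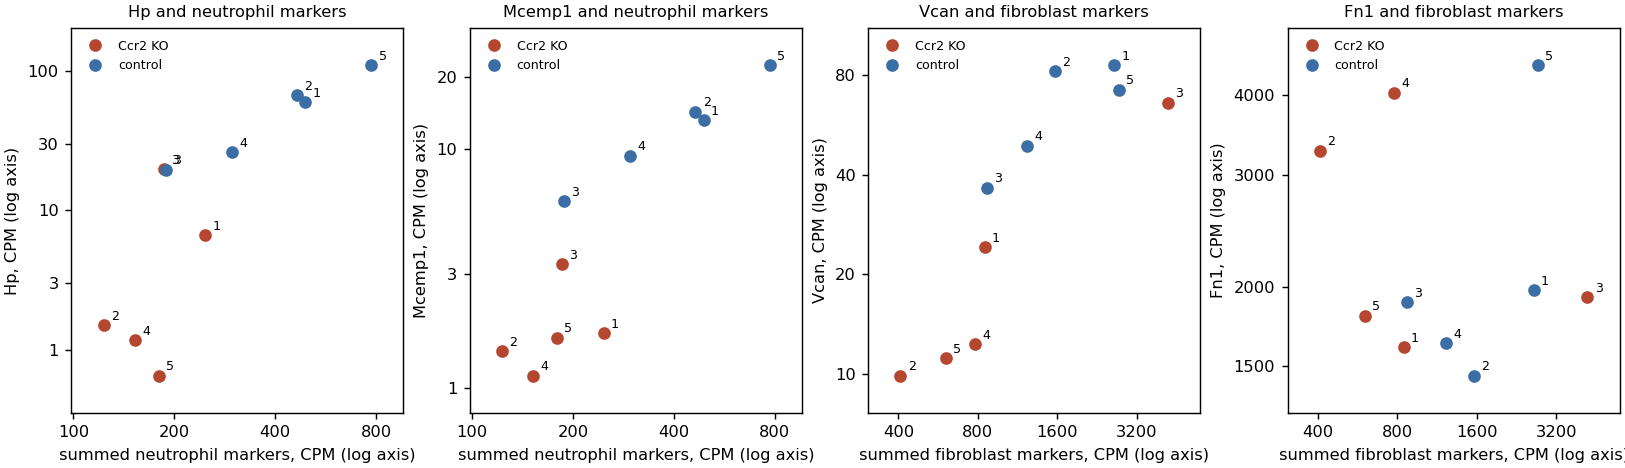
Hp and Mcemp1 against the summed neutrophil markers, and Vcan and Fn1 against the summed fibroblast markers, in CPM on log axes, with a numbered point per library, Ccr2 knockout in red and control in blue. Hp and Mcemp1 are highest in control library 5, which has the highest neutrophil sum, and knockout library 3 has the highest fibroblast sum.

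The 15 fibroblast markers, led by Col3a1 and Col1a1, summed to 848, 407, 4199, 780 and 605 CPM in Ccr2 knockout libraries 1 to 5, against 2627, 1561, 869, 1228 and 2736 CPM in control libraries 1 to 5. Knockout library 3 was the highest of all 10 libraries, and none of its markers was at 0 throughout. Vcan followed the same order within the knockout group, where libraries 3 and 1 were the highest and library 2 the lowest, and it was lowest in control library 3 together with the fibroblast sum. Fn1 did not follow that order among knockout libraries, where its highest libraries, 4 and 2, had fibroblast sums of 780 and 407 CPM. Among controls its highest libraries, 5 and 1, also had the highest fibroblast sums, 2736 and 2627 CPM. The fibroblast sum differed by -0.83 on the log2 scale (exact two-sided permutation p = 0.230, adjusted p = 0.374), and its part in Vcan, Fn1 and Thbs1 was not tested. Platelet markers were scarce, at 1.42 to 13.6 CPM in Ccr2 knockout and 1.91 to 5.88 CPM in control libraries for 8 genes, of which Gp1bb was at 0 in all libraries. Precursor markers such as Elane, Mpo and Prtn3 summed to 0.529 to 1.42 CPM in Ccr2 knockout and 1.2001 to 5.22 CPM in control libraries over 7 genes. Of the 13 marker lists, 0 passed the adjusted threshold and 4 had an unadjusted exact permutation p under 0.05, those of neutrophils, precursors, plasmacytoid dendritic cells and endothelial cells, all lower in Ccr2 knockout. A list at the smallest p this design allows, 0.00794, could pass the adjustment over 13 lists only if other lists had small p as well. The plasmacytoid dendritic cell list was at that p (exact permutation, adjusted p = 0.0774), so its failure to pass says little. Without control library 3, 3 lists passed. Plasmacytoid dendritic cell markers summed to 63.1 to 80.9 CPM in Ccr2 knockout and 86.2 to 97.9 CPM in control libraries. Most of that was Tcf4, at means of 70.2 CPM in knockout and 85.5 CPM in control libraries, while Siglech was at most 1.25 CPM in any library.

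Other genes of classical monocytes stood mostly lower and macrophage-stage genes mostly higher in Ccr2 knockout macrophages, while most genes of both lists did not pass. Of 32 other classical monocyte genes tested, 4 fell and 0 rose, where 0.543% of all genes tested fell. Of the 32, 27 had negative log2 fold changes, with a median of -0.47 against -0.00335 over all genes. The list was written with earlier results of these data known, so its counts are a description. Ly6c2 was at 5.43 ± 3.32 CPM in knockout and 85.2 ± 18.3 CPM in control libraries (log2 fold change -3.97, edgeR adjusted p = 0.00353). F10 was at 3.85 ± 2.44 CPM in knockout and 65.3 ± 38.7 CPM in control libraries (-4.08, adjusted p = 0.00810). Ifitm6 was at 0.652 ± 0.297 CPM in knockout and 4.14 ± 1.84 CPM in control libraries (-2.66, adjusted p = 0.0190). Errors on these means and those after them are SD over 5 libraries per group. Il1r2 in this list is also a neutrophil marker. With the close control pairs summed, Ifitm6 no longer passed (adjusted p = 0.0812), and it also failed without control library 1 or 2 (0.0508 and 0.0546). Over the 19 alternatives the highest adjusted p was 0.0806 for Ly6c2, 0.0920 for F10 and 0.0971 for Ifitm6.

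Of 28 macrophage-stage genes, 4 rose and 0 fell, where 0.87% of all genes tested rose. Of the 28, 19 had positive and 9 negative log2 fold changes, with a median of 0.22. This list too was written with earlier results of these data known. Gas6, a ligand of receptors that clear dying cells, was at 584 ± 89.2 CPM in Ccr2 knockout and 263 ± 49.3 CPM in control libraries (log2 fold change 1.15, edgeR adjusted p = 0.00459). The folate receptor gene Folr2 (1.07, adjusted p = 0.0278), the lysosomal glycoprotein gene Cd68 (0.49, adjusted p = 0.0260) and the complement receptor gene Vsig4 (2.33, adjusted p = 0.0292) rose too. None of the 4 passed with the close control pairs summed (adjusted p from 0.0909 to 0.240). Folr2, Cd68 and Vsig4 each failed without any of control libraries 1 to 4, Folr2 also without knockout library 4 or 5 and Vsig4 without knockout library 1 or 4, with adjusted p from 0.0535 to 0.0892 in those fits. Cd68 also failed with no filter on low counts (0.0585), and the highest adjusted p over the 19 alternatives was 0.168 for Gas6, 0.319 for Folr2, 0.313 for Cd68 and 0.313 for Vsig4.

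**Figure D4:**
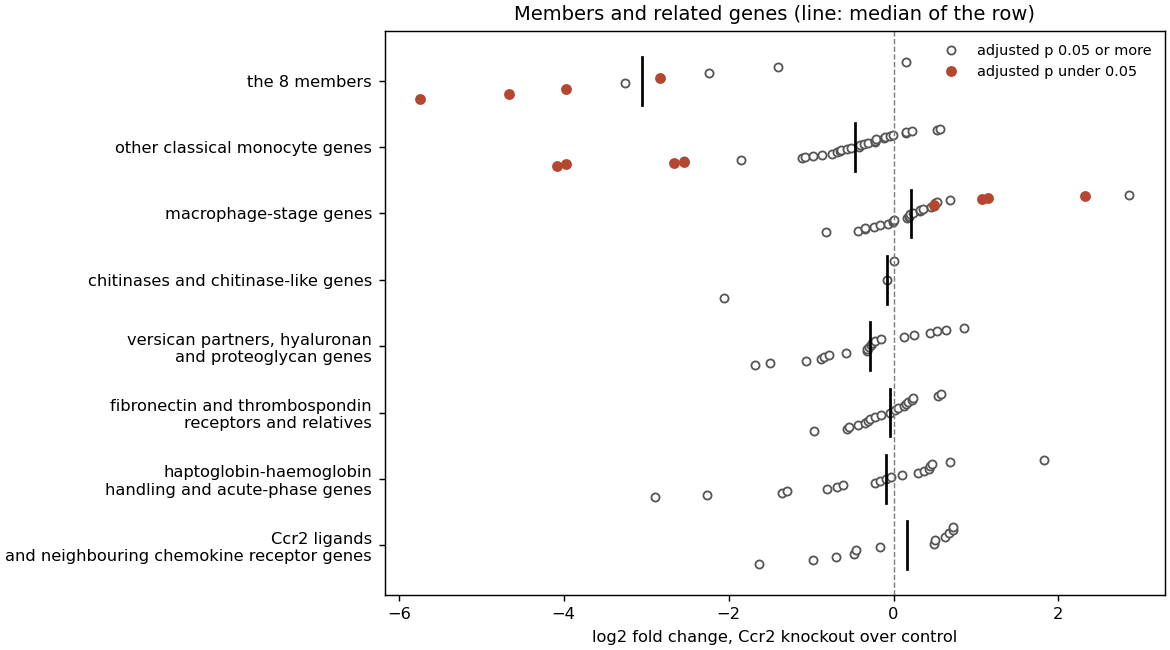
Log2 fold change, Ccr2 knockout over control, of the 8 genes and of the tested genes in 7 related lists, with a point per gene, filled red where the edgeR adjusted p was under 0.05, and a line at the median of each list. The medians are -3.05 for the 8 genes, -0.47 for other classical monocyte genes and 0.22 for macrophage-stage genes.

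Relatives and partners of the 8 genes were examined by list. The share of all genes with an unadjusted p under 0.05 is not given here. Nothing is therefore read from the counts of such genes in this list and those that follow. Of 3 other chitinases and chitinase-like genes tested of 9 listed, 0 passed by edgeR, DESeq2 or limma-voom, and 0 had an unadjusted p under 0.05. Chil1 was at 0.515 ± 0.741 CPM in Ccr2 knockout and 2.16 ± 2.15 CPM in control libraries (log2 fold change -2.05, edgeR adjusted p = 0.451), and Chid1 at 41.8 ± 9.29 CPM in knockout and 44.2 ± 4.44 CPM in control libraries (-0.08, adjusted p = 0.832). Of 20 hyaluronan, proteoglycan and other versican-related genes, 0 passed by edgeR, 3 had an unadjusted p under 0.05, and 2 passed by DESeq2 and 0 by limma-voom. Closest were the scavenger receptor gene Stab1 (log2 fold change 0.64, edgeR adjusted p = 0.123) and Tnfaip6, a hyaluronan-binding protein gene (-1.68, adjusted p = 0.155).

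Receptors for fibronectin and thrombospondin were likewise present in both groups. Of 19 such receptors and relatives, 0 passed by edgeR, 3 had an unadjusted p under 0.05, and 2 passed by DESeq2 and 0 by limma-voom, with a median log2 fold change of -0.04. The endocytic receptor gene Lrp1 was at 2346 ± 267 CPM in Ccr2 knockout and 1609 ± 352 CPM in control libraries (log2 fold change 0.54, edgeR adjusted p = 0.106), and Cd47, whose protein binds thrombospondin-1, at 187 ± 19.1 CPM in knockout and 231 ± 13.007 CPM in control libraries (-0.31, adjusted p = 0.126). Of 19 genes of haemoglobin handling and the acute phase, 0 passed by edgeR, 7 had an unadjusted p under 0.05, and 3 passed by DESeq2 and 0 by limma-voom. The iron exporter gene Slc40a1 was at 19.1 ± 10.9 CPM in Ccr2 knockout and 5.38 ± 2.46 CPM in control libraries (log2 fold change 1.82, edgeR adjusted p = 0.0799), and the biliverdin reductase gene Blvrb at 114 ± 19.0 CPM in knockout and 84.2 ± 7.63 CPM in control libraries (0.44, adjusted p = 0.106). Lcn2 of this list is also a neutrophil marker.

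The genes next to the 8 on their chromosomes were examined, because position had no part in choosing them. Of 16 flanking protein-coding genes in the RefSeq order, 11 were tested and 0 passed by edgeR, while 4 had an unadjusted p under 0.05, and 1 passed by DESeq2 and 0 by limma-voom. Nothing is read from the 4, since the share of all genes under that cut is not given. Ccr3, a chemokine receptor gene beside Ccr2, had a log2 fold change of 0.49 (edgeR adjusted p = 0.739) at under 1.16 CPM in either group mean. Beside Plac8, Cops4 and Coq2 had log2 fold changes of 0.04 and -0.02, and beside Hp, Txnl4b and Dhodh had 0.07 and 0.07 (edgeR adjusted p from 0.803 to 0.946). Beside Vcan, Hapln1, which encodes a link protein that binds versican to hyaluronan, had -1.50 at 0.315 ± 0.230 CPM in Ccr2 knockout and 0.898 ± 0.707 CPM in control libraries (edgeR adjusted p = 0.350), and Xrcc4 had -0.40 (0.232). Beside Fn1, Atic had 0.31 and Mreg -0.63 (adjusted p = 0.172 and 0.467), and beside Thbs1, Rasgrp1 had -0.80 (0.195). Retn and Fcor beside Mcemp1, Chia1 and Chil4 beside Chil3, and Fsip1 beside Thbs1 were too low to test.

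The ligands of Ccr2 were at hand in the same libraries. Of 12 tested ligands and neighbouring chemokine receptor genes, 0 passed by edgeR, 2 had an unadjusted p under 0.05, and 1 passed by DESeq2 and 0 by limma-voom. Cnih4, a cargo receptor of the endoplasmic reticulum, had a log2 fold change of -0.16 (edgeR adjusted p = 0.309).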

How the data were processed

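Gene-level read counts deposited by the authors were used for 10 libraries, 5 of each genotype. The submitters' processing notes name STAR and the build GRCm39. For both, version and annotation details were not given in the sources used here. Libraries were poly(A)-enriched and directional, per the labels' protocols. The reverse-strand counts were used, since they held 96.2% to 96.5% of strand-assigned counts. Entries that name no gene were left out (unmapped 6.87% to 8.07% of reads, no feature 3.63% to 5.68%, ambiguous 1.83% to 2.10%), and multimapping reads were listed as 0. Of 55359 identifiers, 52083 matched a symbol.

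The test was edgeR 4.0.16 (R 4.3.3) by quasi-likelihood after filterByExpr (minimum count 10) and TMM, with Benjamini-Hochberg adjustment over all 14374 genes and a threshold of 0.05. Standard errors are the log2 fold change divided by the square root of F. CPM uses TMM-scaled library sizes, and log2 CPM a prior count of 2. Marker sums were compared by exact permutation. The fit was tested on simulated counts. Alternatives were other size factors, DESeq2 1.42.0, limma-voom (limma 3.58.1), other filters, unstranded counts, a replicate block, libraries left out and close libraries summed. The 8 genes and all lists were chosen with earlier results of these data known. Genes named were the 8, up to 6 per related list past the threshold or else the 2 with the smallest p, the 3 nearest profiles of each gene, the flanking genes, and the most abundant or absent markers. Elane, Mpo, Prtn3, Il1r2, Ly6g, Retnlg, Tcf4 and Siglech were named as list members, after their values were seen. Some genes that this rule names are not reported here. Promoters came from RefSeq (GRCm38.p6), exon lengths from GENCODE M21, and order of genes from RefSeq. Figures used matplotlib 3.10.9.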

Additional observations from a re-analysis of the deposited data

Results flagged for a closer look

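Among 42 groups of 5 libraries checked, covering the 8 genes and 13 marker lists, 10 held a library far from the rest by Dixon's test. Its rate of about 1 in 20 by chance assumes independent groups of normally distributed values. These groups share libraries and hold CPM without a log transform, so the 10 are not set against that rate. Control library 5 stood apart for Chil3 at 966 CPM (next 255), Fn1 at 4458 CPM (next 1977) and Thbs1 at 2079 CPM (next 932), and for summed macrophage markers at 33414 CPM. Knockout library 3 stood apart for Mcemp1 at 3.29 CPM (next 1.69) and Vcan at 65.9 CPM (next 24.2), and for summed fibroblast markers at 4199 CPM (next 848), platelet markers at 13.6 CPM (next 4.52) and dendritic cell markers at 54.0 CPM (next 27.6). Knockout library 4 was low for plasmacytoid dendritic cell markers at 63.1 CPM (next 77.1).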

How the results depend on the processing

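The log2 fold changes of all 8 genes moved by less than the SD between libraries within groups in each of the 19 alternatives run. With a library left out, those of Hp, Vcan and Fn1 moved by more than their standard errors. Hp went from -3.25 (standard error 0.90) to -4.49, Vcan from -1.40 (0.52) to -2.18 and Fn1 from 0.15 (0.35) to 0.55. The number of all genes called was 203 in the main test, 820 with DESeq2, 29 with the close control pairs summed, 8 with knockout libraries 4 and 5 summed as well, and 62 to 267 with a library left out. It was 107 without knockout library 4, 92 without knockout library 5, and 77, 62, 101 and 77 without control libraries 1, 2, 3 and 4. Among related genes it was 8 in the main test, 20 with DESeq2, 2 and 0 with those libraries summed, and 4 to 11 with a library left out. Of the 8 monocyte genes themselves, 4 passed in the main test, 7 without knockout library 3 (267 of all genes), 6 with DESeq2, and 1 with all 3 close pairs summed. Since the 8 were selected on this comparison, nothing is read from their counts. With the title number as a replicate block, 55 of all genes, 3 related genes and 3 of the 8 passed. The numbers share no stated origin, and libraries with the same number did not deviate together (correlations from -0.529 to 0.344). Of marker lists, 0 passed in the main test and 0 to 3 with a library left out. Log2 differences that changed sign were Fn1 (-0.07 to 0.55 with a library left out, -0.05 with the close control pairs summed and -0.11 with knockout libraries 4 and 5 summed as well), Chid1 (-0.21 to 0.0045 with a library left out), B and plasma cell markers (-0.60 to 0.15), platelet markers (-0.18 to 0.64), melanoma markers (-0.25 to 0.021) and eosinophil markers (-0.081 to 0.43), and T and NK cell markers (-2.07 as a mean over markers). The cause of these changes was not tested. Hp and Mcemp1 had as few as 25 and 46 counts in a knockout library, and the part of depth in their spread was not tested.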
